A study of Bos taurus with 68 samples.

Results

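The genes described here encode proteins that bind, splice or unwind RNA. They were taken by name stem: every cDNA clone whose updated gene symbol begins with SF3A, SF3B, SNRP, HNRNP, SRSF, PRPF, LSM, DDX, DHX or U2AF, or with RBM and a digit. The rule found 111 clones of 83 genes among 5693 listed clones, and it used no measured value. By family there were 24 DDX, 7 DHX, 18 HNRNP, 26 RBM, 8 SRSF, 8 PRPF, 7 SF3B, 7 LSM, 4 SNRP and 2 U2AF clones, and 0 SF3A clones. A stem names a family and not a function. Some DDX, DHX, LSM and RBM proteins act in ribosome assembly, mRNA decay or RNA methylation.

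Liver RNA came from 5 cows, numbered 6934, 6983, 7079, 7186 and 7188, on days -65, -30, -14, 1, 14, 28 and 49 relative to calving. Each liver RNA was hybridised with a reference standard RNA on 2-colour cDNA arrays, on a pair of arrays with exchanged dyes. The labels name no treatment, and breed, age, parity, feeding and the tissues that make up the reference are not stated there. The tests used 30 cow-days from 1 table of 60 arrays, with all 5 cows on days -65, -30, 1 and 28, with 3 of them on days -14 and 14 and with 4 on day 49.

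Splicing removes introns from a nascent transcript in a spliceosome that is built anew on each intron. U1 binds the start of the intron, U2AF proteins bind its end, and the U2 particle with its SF3A and SF3B proteins settles on the branch point. The tri-snRNP of U4, U6 and U5 then joins, with PRPF proteins in it and a ring of LSM proteins on U6, and helicases of the DDX and DHX families drive the rearrangements. SRSF and HNRNP proteins bind exons and introns and shift which splice sites are used. In the liver of a dairy cow, the weeks around calving bring a steep metabolic change as milk synthesis starts.

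All values are log2 ratios of liver over reference, centred so that the median row of an array is at 0, and a value per cow is the mean over its days. The direction is only likely, because the labels do not name the numerator. With the ratio the other way, "below" and "above" exchange throughout, differences between days included. The array pair with exchanged dyes correlated below 0 across rows, as opposite orientations should, in 25 of 30 cow-days. Pearson's r ran from -0.529 to 0.176 with a median of -0.17, so the reversal was weak in most pairs. Behind each test between days stood 19 residual degrees of freedom for a clone measured in all 30 cow-days, and fewer with missing values. The moderated tests added 4.24 prior degrees of freedom to these. Of the hepatocyte markers, 4 of 12 genes were tested and all 4 lay above the reference, TF at 3.78 and ASGR2 at 2.46, but APOA1 at 0.06. All 12 macrophage marker clones lay above 0, all 8 stellate cell clones below it, and the cell division genes STMN1 and PCNA lay at -3.15 and -2.12. A clone was tested if at least 3 cows had a value on each day, which held for 108 of the 111 members and 5280 of all clones. DHX38, RBM26 and 1 of the 2 HNRNPD clones did not reach it.

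Against the reference, the SRSF, HNRNP, SF3B, SNRP and LSM clones had family medians below 0, and the PRPF, U2AF, helicase and RBM clones spread around it. Of the 108 tested members, 43 passed the threshold below the reference and 9 above it (limma on the means of the 5 cows, Benjamini-Hochberg adjusted p under 0.05). Over all tested clones, 47.5% passed, 25.2% below and 22.3% above. For the members these shares were 48.1%, 39.8% and 8.33%. Members passed about as often as any clone, and the passing members lay below the reference more often. Of those past the threshold, 82.7% of members and 53% of all clones lay below. On arrays with liver in Cy3 alone these shares were 73.6% and 52.8%, and with liver in Cy5 alone they were 62.2% and 56.3%, so the gap narrowed there. The estimate was below 0 for 73 of 108 members (67.6%), against 51.8% of all clones. In bulk liver, fewer cells of a type and less RNA per cell cannot be told apart, and a ratio below 0 can equally reflect a high level in the reference.

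Family medians ran from -0.46 for SRSF, -0.41 for HNRNP, -0.38 for SF3B, -0.36 for SNRP and -0.23 for LSM to values near 0. These were -0.06 for DDX, -0.02 for DHX, -0.02 for RBM, 0.01 for PRPF and 0.07 for U2AF. The median was -0.09 over all members and -0.01 over all clones. The medians of SRSF, HNRNP, SF3B, SNRP and LSM were below 0 under each of 17 other ways of processing. With liver in Cy5 alone they were -0.19, -0.41, -0.28, -0.10 and -0.15 in this order. The median of all clones was -0.07 there, so SNRP lay close to it. The sign turned under 5 of the 17 for PRPF, 4 for DHX, 4 for RBM, 1 for DDX and 1 for U2AF, so no direction is given for those families.

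**Figure D1:**
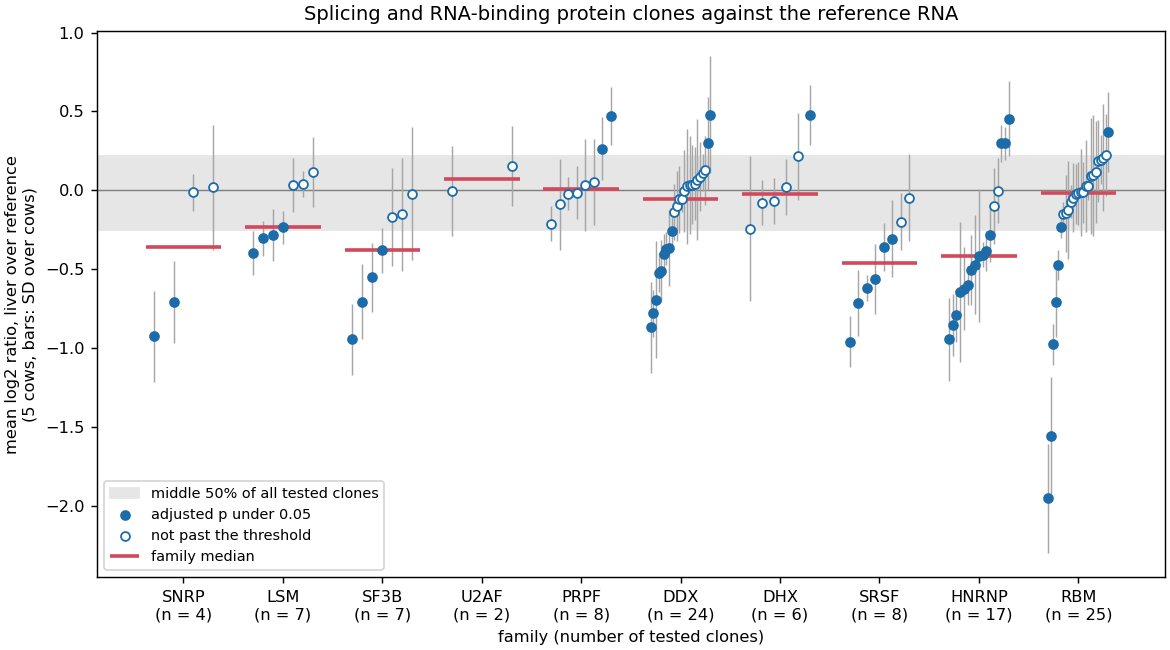
Mean log2 ratio of liver over reference for each tested clone, by family (points, means of 5 cows; filled where the adjusted p was under 0.05), with SD over cows as thin lines, the family median as a red bar and the middle 50% of all tested clones as a grey band; the direction of the ratio is only likely. All 8 SRSF and all 7 SF3B clones lie below 0, RBM3 lies lowest at -1.95, and the medians of PRPF, DHX, RBM, DDX and U2AF, all near 0, change sign under at least 1 other processing.

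The SNRP clones came from proteins of 1 particle (SNRPA and SNRPB2) and from proteins of the shared core (SNRPD2 and SNRPD3). SNRPA, the A protein of U1, was at -0.89, -1.13, -1.003, -0.45 and -1.16 in cows 6934, 6983, 7079, 7186 and 7188, the order of all cow values below. All 5 cows were below the reference, cow 7186 least. The mean was -0.92 ± 0.29 (SD, n = 5 cows; limma adjusted p = 2.39e-06), or 1.90-fold below. SNRPB2, a U2 protein, lay at -0.71 ± 0.26 (limma adjusted p = 2.98e-05). The Sm core proteins were near 0, with SNRPD3 at -0.01 ± 0.12 and SNRPD2 at 0.02 ± 0.40. SNRPD2 ranged from -0.44 in cow 7186 to 0.60 in cow 6983, so its cows did not share a sign. SNRNP70, a U1 protein with another name stem, also lay near 0, with clones at -0.04 and 0.0006. The levels thus do not divide by particle and core in general.

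Of the 7 LSM clones, 4 passed, all below the reference. LSM6, a U6 ring subunit, was at -0.34, -0.30, -0.47, -0.26 and -0.61 in the 5 cows, a mean of -0.40 ± 0.14 (limma adjusted p = 0.00201). Both LSM8 clones, for the subunit that marks the nuclear ring, passed at -0.30 and -0.23. LSM14A, a protein of cytoplasmic mRNA granules, passed at -0.28. LSM4 (0.04 ± 0.08), LSM14B (0.03 ± 0.17) and LSM12 (0.12 ± 0.22) did not pass.

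In SF3B, the part of the U2 particle that grips the branch point, 4 of 7 clones passed and all 4 were below 0. SF3B5, its smallest subunit, was at -0.86, -1.35, -0.85, -0.87 and -0.80. Cow 6983 lay apart from the other 4, which were within 0.1 of each other, and all were below the reference. The mean was -0.94 ± 0.23 (limma adjusted p = 8.07e-07), or 1.93-fold below. SF3B3 at -0.70 ± 0.24, the branch point contact SF3B6 at -0.55 ± 0.22 and SF3B4 at -0.38 ± 0.14 passed as well. The 3 clones of SF3B1, the scaffold of the complex, did not, with means of -0.17, -0.15 and -0.02. In each of the 3, cows 7079 and 7188 were below 0 and cows 6934 and 7186 above it.

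The 2 U2AF clones stayed near the reference. U2AF2, which binds the polypyrimidine tract, was at -0.19, 0.36, 0.06, -0.38 and 0.13, and U2AF1, which reads the end of the intron, at 0.10, -0.12, 0.10, 0.57 and 0.11. Neither had 5 cows on 1 side of 0, and neither passed (means -0.01 ± 0.28 and 0.15 ± 0.25; limma adjusted p = 0.978 and 0.261).

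Of the 8 PRPF clones 2 passed, both above the reference, and the family median was near 0. PRPF8, the U5 protein at the heart of the spliceosome, was at -0.02 ± 0.17, and the 2 clones of PRPF6, which bridges U5 to U4 and U6, were at 0.04 ± 0.29 and 0.05 ± 0.27. The lowest PRPF clone, clone 2 of the kinase gene PRPF4B, was at -0.24, -0.32, -0.17, -0.29 and -0.04 and just missed the threshold (-0.21 ± 0.11, limma adjusted p = 0.067). Clone 1 of the same gene passed on the other side, at 0.58, 0.32, 0.18, 0.20 and 0.05 (0.26 ± 0.20, limma adjusted p = 0.0353). It was at 0.54 with liver in Cy3 and -0.01 with liver in Cy5. PRPF31, a U4 protein, had 3 clones, and clone 3 was at 0.35, 0.75, 0.56, 0.40 and 0.29. Its mean of 0.47 ± 0.19 passed (limma adjusted p = 0.000718), but clones 1 and 2 of the same gene were at -0.09 and -0.02. The arrays with liver in Cy3 gave clone 3 a mean of 0.11 and those with liver in Cy5 0.83.

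The DEAD-box helicases were divided, with 9 of 24 clones past the threshold below the reference and 2 above. DDX5 clone 1, for a helicase that also acts as a transcription cofactor, was at -0.46, -0.91, -1.07, -0.72 and -1.19, a mean of -0.87 ± 0.29 (limma adjusted p = 4.88e-06). Both clones of DDX39A, an mRNA export helicase, passed at -0.52 and -0.41, as did DDX47, of ribosomal RNA processing, at -0.37 and the U5 helicase DDX23 at -0.26. The near relative DDX39B did not pass with either clone (0.11 ± 0.12 and -0.00335 ± 0.26). DDX6, of mRNA decay, was at 0.07 ± 0.38, and DDX46, of early U2 assembly, at -0.06 ± 0.08.

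Of the 6 tested DHX helicases, 1 passed. DHX8, which releases the finished mRNA from the spliceosome, was at 0.59, 0.17, 0.67, 0.51 and 0.46, above the reference in every cow, with a mean of 0.48 ± 0.19 (limma adjusted p = 0.000629). Its 2 orientations opposed each other, at 1.15 with liver in Cy3 and -0.19 with liver in Cy5. DHX15, which takes the spent spliceosome apart, was at 0.11, -1.04, -0.08, -0.01 and -0.20 and did not pass (-0.24 ± 0.46). The value of cow 6983 stood alone there, and the orientations again opposed, at 0.45 and -0.94.

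The SR proteins, which mark exons for inclusion, lay on 1 side of the reference in the averaged pair. All 8 clones were below 0 there, and 6 passed. With liver in Cy5 alone, 3 of the 8 were above 0. SRSF7 clone 2 was at -0.71, -0.98, -1.05, -0.92 and -1.13, a mean of -0.96 ± 0.16 (limma adjusted p = 3.12e-07) or 1.94-fold below the reference. SRSF1 followed at -0.72 ± 0.21, SRSF9 at -0.62 ± 0.09, SRSF11 at -0.56 ± 0.22, SRSF3 at -0.36 ± 0.15 and SRSF2 at -0.31 ± 0.24. The clones that did not pass were SRSF7 clone 1 at -0.20 ± 0.18 and SRSF6 at -0.05 ± 0.28. SRSF6 was at 0.23, -0.18, -0.31, 0.28 and -0.25, above 0 in cows 6934 and 7186 and below it in the other 3.

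The hnRNP proteins coat nascent transcripts, and 12 of their 17 tested clones passed below the reference and 3 above. HNRNPDL clone 3 was at -0.75, -0.96, -1.30, -0.64 and -1.08, a mean of -0.94 ± 0.26 (limma adjusted p = 1.31e-06). HNRNPA2B1 passed with both clones (-0.86 and -0.51), and HNRNPK, which binds C-rich RNA and DNA, lay at -0.79 ± 0.17. HNRNPC, which binds runs of U, lay at -0.47 ± 0.31, and HNRNPU clone 1, for the scaffold attachment factor, at -0.41 ± 0.08. HNRNPL, which binds CA repeats, was the highest at 0.82, 0.54, 0.19, 0.34 and 0.38. All 5 cows were above the reference, with a mean of 0.45 ± 0.24 (limma adjusted p = 0.00159), but the 4 cow-days of the smaller array table gave a mean of -0.28.

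The RBM genes share an RNA recognition motif and little else, and they held both the lowest members and many at 0. RBM3, whose transcript is known to respond to cold, was at -1.74, -2.51, -2.06, -1.70 and -1.76. Each cow was at least 1.5 below 0, and the mean of -1.95 ± 0.34 (limma adjusted p = 6.04e-10) was 3.87-fold below the reference. Both orientations gave it the same level, -1.94 and -1.96. RBM15, of the complex that methylates adenosines in mRNA, was at -1.24, -1.90, -1.59, -1.93 and -1.11, a mean of -1.55 ± 0.37 (limma adjusted p = 1.62e-08). RBM22, which sits at the catalytic centre of the spliceosome, was at -0.84, -0.87, -1.12, -1.10 and -0.94, with the narrow spread of -0.98 ± 0.13 (limma adjusted p = 1.84e-07). RBM17 clone 2, RBM45 and RBM18 also passed below 0, at -0.71, -0.47 and -0.23. RBM38 clone 2, for a p53 target that stabilises mRNAs, was at 0.12, 0.68, 0.30, 0.59 and 0.15, the 1 RBM clone past the threshold above the reference (0.37 ± 0.25, limma adjusted p = 0.00778). The other 18 tested RBM clones did not pass.

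The dye orientation divided the members. Of the 108, 43 were below 0 in both orientations (39.8%, against 27% of all clones) and 7 above 0 in both (6.48%, against 19%). A further 36 (33.3%, against 27.6%) were below 0 with liver in Cy3 and above it with liver in Cy5. The other way were 22 (20.4%, against 26.4%). So 46.3% of members had the same sign in both orientations, against 46% of all clones. Among the 52 members past the threshold 44 had the same sign, 84.6% against 79% of all clones past it. The other 8 were DHX8, HNRNPA0 clone 2, DDX24 clone 1, PRPF4B clone 1, HNRNPDL clone 4, HNRNPAB, SRSF3 and LSM14A. Of these, HNRNPA0 clone 2 was at 0.94 and -0.34 in Cy3 and Cy5, and SRSF3 at -0.81 and 0.09. All tested U2AF and DHX clones, 2 of 2 and 6 of 6, changed sign with the orientation.

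When each orientation was tested alone, 31 of the 52 members passed in both with the same sign (59.6%, against 50.8% of all clones past the threshold). They were 29 of the 43 below the reference and 2 of the 9 above it. By family these were 2 of 2 SNRP, 4 of 4 SF3B, 6 of 7 RBM, 4 of 6 SRSF, 6 of 11 DDX, 8 of 15 HNRNP, 1 of 4 LSM, 0 of 2 PRPF and 0 of 1 DHX clones. In the smaller table, which held 4 other cow-days, 47 of the 52 had the same sign (90.4%, against 77.7% of all clones past the threshold). DDX24 clone 2 was an exception, at -0.78 in the larger and 0.79 in the smaller table. The array print and the cow-days differ together between the tables, so what sets this clone apart was not tested.

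**Figure D2:**
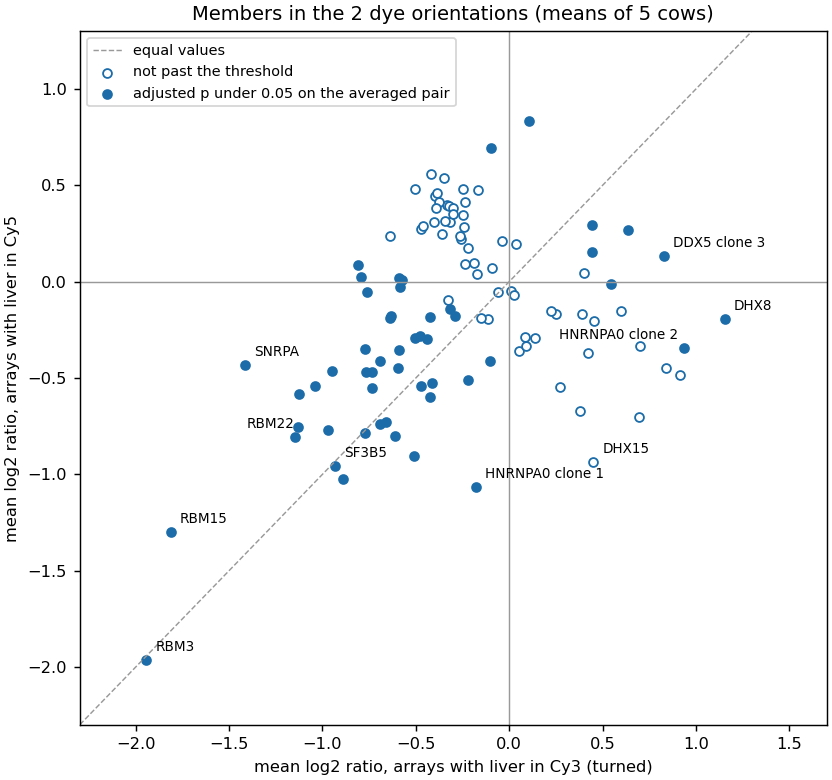
Mean log2 ratio of each tested member over arrays with liver in Cy3, sign turned (x axis), and over arrays with liver in Cy5 (y axis), as means of 5 cows, filled where the adjusted p on the averaged pair was under 0.05; the dashed line marks equal values. RBM3 lies on the line at -1.94 and -1.96, and 58 of 108 members, DHX8 and DHX15 among them, have opposite signs in the 2 orientations.

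A gene with several clones gives an inner check, because each clone is a separate cDNA of the same gene. In all, 21 member genes had 48 clones. The gap between the highest and the lowest clone had a median of 0.308 over these genes, and it passed 1 in 3 of them. DDX5 had clones at -0.87, -0.37 and 0.48. HNRNPDL had clones at -0.94, -0.60, -0.38 and 0.30, and DDX24 at -0.78, -0.51 and 0.30. For these 3 genes and HNRNPA0 (-0.62 and 0.30), clones passed the threshold on both sides of the reference, so no direction can be given for the gene. DDX39A, LSM8 and HNRNPA2B1 had all clones past it on the lower side. With liver in Cy5 alone, DDX39A clone 1 and both LSM8 clones did not pass. A cDNA clone can bind related transcripts or cover different parts of a gene, and the clones' sequences were not used here.

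The profiles of clones of a gene over the 30 cow-days differed as much. Pearson's r between clones was 0.90 for PRPF6, 0.85 for RBM4, 0.79 to 0.90 for SF3B1 and 0.78 for HNRNPA2B1. It was -0.16 for SRSF7, -0.17 for DDX39A, -0.19 for RBM17, -0.33 for DDX1 and as low as -0.64 for DDX24. These points share arrays and cows, so r is a description only. The agreement of the 3 SF3B1 clones covers the cow differences given above, while both RBM17 clones differed in level (-0.71 and -0.01) and in profile.

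**Figure D3:**
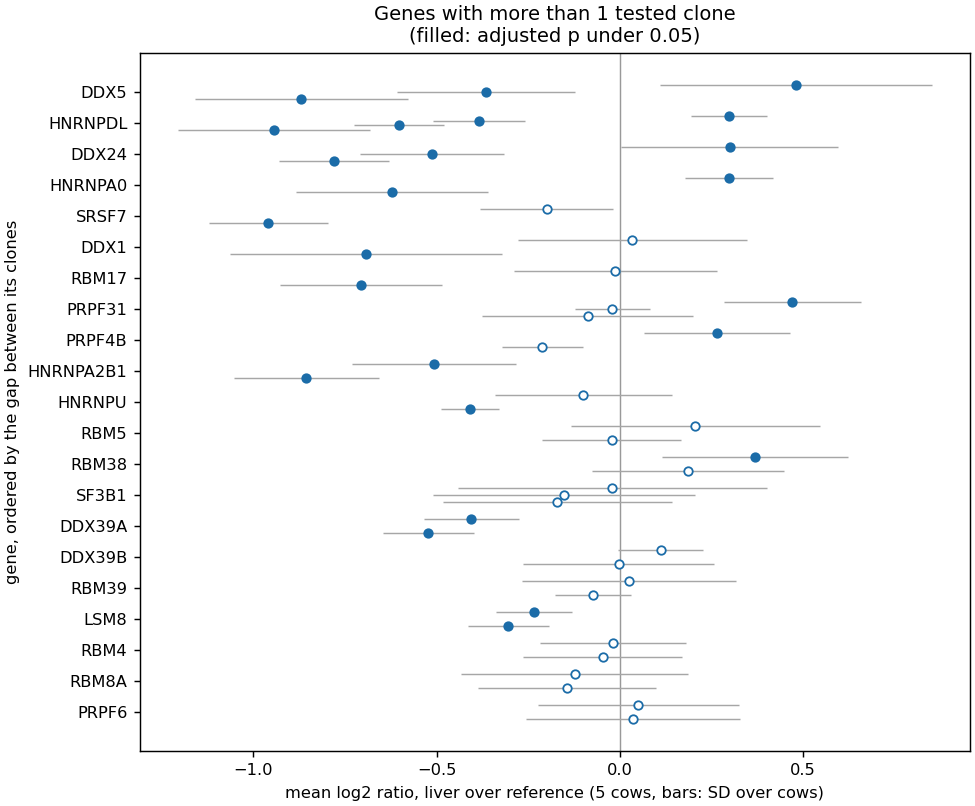
Mean log2 ratio of liver over reference (direction only likely) of every clone of the 21 genes with more than 1 clone, as means of 5 cows, ordered by the gap between clones; filled points had an adjusted p under 0.05. DDX5 spans -0.87 to 0.48, and PRPF6, at the other end, spans 0.04 to 0.05.

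Over the 7 days no member passed the test for a day effect (limma moderated F test, 0 of 108 at an adjusted p under 0.05), against 0.0189% of all clones, which was 1 clone. At an unadjusted p under 0.05 there were 2 of 108, or 1.85%, against 5.21% of all clones. The raw share of day in the sum of squares of a member had a median of 14.0% and that of cow 21.4%. A median of 59.2% was left over, among 107 members measured in every cow-day. For all such clones the shares were 16.1%, 24.2% and 56.0%. The median share of day was smaller than that of cow among the members and among all clones. Day has 7 levels and cow 5, and the shares were not corrected for this. A term without any effect also takes a share, so these values do not measure an effect of day or cow.

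RBM22 had the smallest p of the day effect (F = 3.65, unadjusted p = 0.0106, limma adjusted p = 0.798). On day -65 it was at -0.96, -1.20, -1.22, -1.48 and -0.72 in the 5 cows, and on day -30 at -0.29, -0.63, -1.12, -0.77 and -0.52. On day 1 it was at -1.51, -1.02, -1.38, -1.21 and -1.93. Each cow was lower on day 1 than on day -30, although the groups overlapped, because cow 6983 on day 1 lay above cow 7079 on day -30. On day 28 the cows were at -0.52, -0.70, -0.67, -0.40 and -1.01, each higher than on day 1. The lowest value of day 28, in cow 7188, lay just above the highest of day 1, in cow 6983. Days -14 (-1.22, -1.41 and -1.13 in cows 6983, 7186 and 7188) and 14 (-0.47, -1.52 and -1.15 in cows 6983, 7079 and 7186) had 3 cows, and day 49 (-0.91, -0.82, -1.32 and -0.33, without cow 6983) had 4. The difference between day 1 and day -30 was -0.74 ± 0.21 (SE, 5 cows; limma adjusted p = 0.324), and that between day 28 and day 1 was 0.75 ± 0.21 (SE; limma adjusted p = 0.315). Neither passed, and the second was 1.07 with liver in Cy3 and 0.44 with liver in Cy5.

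The array weights of limma were also tried, set on cow-day values, which average an array pair, and not on single arrays. With these weights RBM22 was the 1 member that passed the day effect (limma adjusted p = 0.0432), in a fit that passed 195 clones in all. It did not pass in any of the other alternatives. Its difference between day 1 and day -30 ran from -0.86 to -0.58 as each cow was left out in turn and kept its sign in all alternatives.

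DDX5 clone 3 came next (F = 2.75, unadjusted p = 0.0364, limma adjusted p = 0.934). On day -30 it was at 1.498, 0.27, 0.80, 2.38 and 0.67, and on day 1 at 0.17, -0.51, 0.38, 0.86 and -0.24. All 5 cows were lower on day 1, and the ranges overlapped. The difference was -0.99 ± 0.33 (SE; limma adjusted p = 0.434). On the other days it was at -0.10, 0.22, 0.08, 0.32 and 1.24 (day -65), -0.30, 1.695 and 0.98 (day -14), 0.11, 0.22 and 0.17 (day 14), 1.605, 0.39, 0.54, 1.16 and -0.14 (day 28), and -0.09, -0.62, 0.38 and 0.64 (day 49). The means of the later days were lower than those of the earlier ones by a contrast of -0.46 ± 0.22 (SE, unadjusted p = 0.0483), lower in 3 of 5 cows. That contrast was -0.66 with liver in Cy3, -0.25 with liver in Cy5 and -0.08 with array weights.

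RBM5 clone 1, for a splicing regulator of apoptosis genes, had 28 of the 30 cow-days. On day -30 it was at 0.59, 0.11, 1.55 and 0.34 in cows 6934, 6983, 7186 and 7188, and on day 1 at 0.20, -0.92, 0.12 and -0.37 in cows 6934, 6983, 7079 and 7188. The 3 cows with both days were lower on day 1. The difference was -0.78 ± 0.25 (SE; limma adjusted p = 0.434), and it was -0.26 on arrays with liver in Cy3 and -1.29 with liver in Cy5. Its other values were 0.21, -0.07, 0.25, 0.23 and 0.26 on day -65, -0.20, 0.94 and -0.07 on day -14, and 0.18, 0.19 and 0.43 on day 14. They were 1.09, 0.31, 0.34, 0.62 and -0.49 on day 28 and -0.15, -0.35, 0.46 and -0.11 on day 49. RBM5 clone 2 correlated with it at -0.10.

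DDX24 clone 2, for a nucleolar helicase, was at -1.04, -0.96 and -1.34 on day -14 in cows 6983, 7186 and 7188 and at -0.29, -0.04, -0.95, 0.28 and -1.08 on day 1. The 3 shared cows were higher on day 1, and the 2 days overlapped through cow 7188. The difference was 0.76 ± 0.29 (SE, unadjusted p = 0.0138, limma adjusted p = 0.9999), the 1 member of 108 under an unadjusted p of 0.05 (0.926%, against 2.29% of all clones, with 0 members and 0% of clones past the adjusted threshold). With both array tables joined it was -0.021, and it was 0.40 with liver in Cy3 and 1.13 with liver in Cy5. The clone was at -1.26, -1.38, -1.14, -1.42 and -0.47 on day -65 and at -0.34, -0.87, -1.12, -1.52 and -0.42 on day -30. It was at -0.57, -1.005 and -0.56 on day 14, at -0.63, -0.36, -0.73, -0.32 and -0.70 on day 28 and at -0.70, -1.26, -0.70 and -0.53 on day 49.

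**Figure D4:**
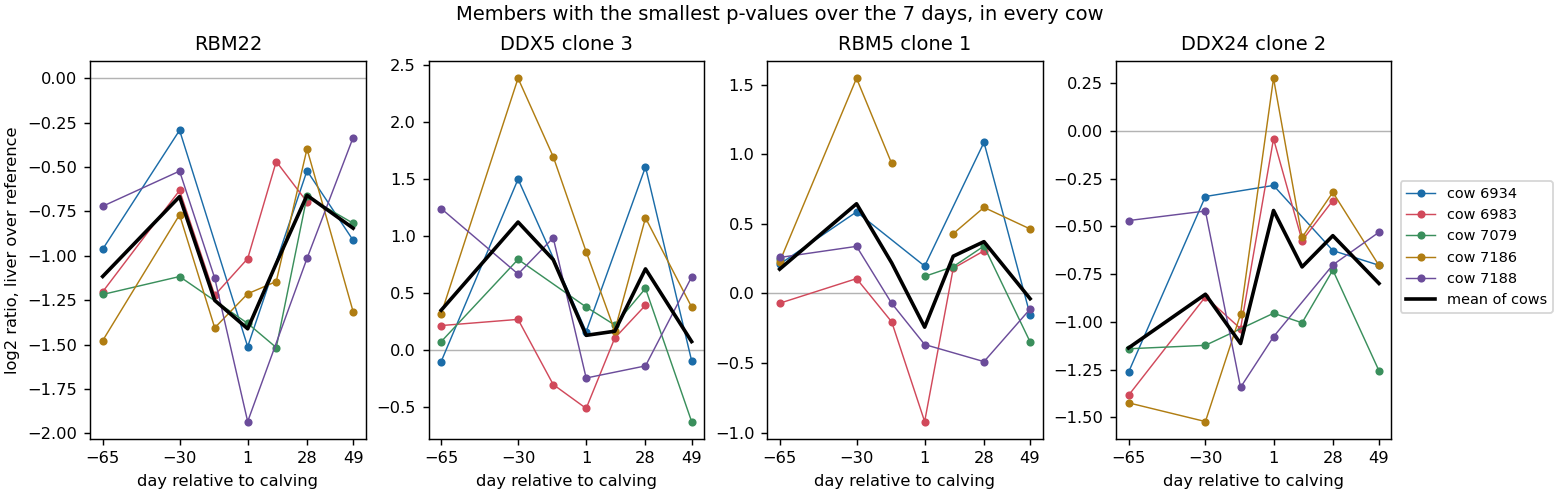
Log2 ratio of liver over reference (direction only likely) on each day relative to calving for the 4 members with the smallest p of the day effect, with a thin line per cow, which joins the days measured in that cow, and a thick line for the mean of the cows. RBM22 is lowest on day 1, down to -1.93 in cow 7188, and DDX5 clone 3 is highest on day -30, up to 2.38 in cow 7186; neither passed the day effect after adjustment.

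Day 1 against day -30, the last earlier day with all 5 cows, passed 0 members and 0.0189% of clones (limma). At an unadjusted p under 0.05 were 10 members, or 9.26%, against 8.37% of all clones, 8 of the 10 below 0 (7.41%, against 7.08% of all clones). Beside RBM22, DDX5 clone 3 and RBM5 clone 1, LSM4 differed by 0.53 ± 0.21 (SE, higher in 4 of 5 cows) and HNRNPDL clone 2 by 0.37 ± 0.17 (SE, higher in 3 of 5). The latter was 0.63 with liver in Cy3 and 0.10 with liver in Cy5. LSM4 was at 0.34, -0.35, 0.10, -0.94 and 0.14 on day -30 and at 0.43, 0.57, 0.002, 0.58 and 0.38 on day 1, and it was back at 0.14, -0.82, 0.25, -0.05 and -0.33 on day 28. Its other values lay between -0.20 and 0.40. Day 1 was the day with the fewest values of LSM4 below 0, and its 5 cows overlapped those of both other days.

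Day 28 against day 1 also passed 0 members and 0% of clones. At an unadjusted p under 0.05 were 8 members, 7.41% against 7.82%. RBM19, of ribosome biogenesis, differed by -0.72 ± 0.25 (SE, lower in 5 of 5 cows, limma adjusted p = 0.529), LSM4 by -0.55 ± 0.21 (lower in 4 of 5) and PRPF31 clone 3 by 0.46 ± 0.20 (higher in 5 of 5). The value of LSM4 came from 1 orientation, with -1.10 for liver in Cy5 and -0.0075 for liver in Cy3. PRPF31 clone 3 was at 0.42, 0.58, 0.06, 0.42 and -0.16 on day 1 and at 0.57, 1.24, 0.90, 0.75 and 0.15 on day 28, with overlapping ranges. It was at 0.56, 0.83, 0.57, 0.29 and 0.40 on day -65, at 0.07, 1.10, 0.90, 0.50 and 0.52 on day -30 and at 0.48, -0.13 and 0.73 on day -14. On days 14 and 49 it lay between 0.11 and 0.88.

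For the mean of days 14, 28 and 49 against that of days -65, -30 and -14, 0 members and 0% of clones passed, and 3 members (2.78%, against 3.86%) were at an unadjusted p under 0.05. DDX24 clone 2 differed by 0.40 ± 0.16 (SE, higher in 5 of 5 cows) and HNRNPA0 clone 1 by 0.52 ± 0.23 (higher in 5 of 5, limma adjusted p = 0.9998 for both). The latter was 0.11 with liver in Cy3 and 0.92 with liver in Cy5. DDX39B clone 1 differed by -0.25 ± 0.15 and was lower in 4 of 5 cows. RBM4B was named for day 1 against day -14, where it differed by 0.24 ± 0.17 and was higher in 3 of 3 cows (0.13 with liver in Cy3 and 0.36 with liver in Cy5). Named there on the lower side were DDX5 clone 3 at -0.66 ± 0.39 (SE, lower in 3 of 3) and RBM5 clone 1 at -0.42 ± 0.28 (lower in 2 of 2). LSM12, with a day effect of F = 2.11, was at 1.41 on day 1 in cow 7186, but between -0.37 and -0.18 in the other 4 cows. Its other values ran from -0.91 on day 49 in cow 7079 to 0.95 on day -30 in the same cow, and no day stood apart from the rest.

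By family, the differences between day 1 and day -30 were below 0 for 69 of 108 members (63.9%, against 57.1% of all clones). The median was -0.11 over the members and -0.06 over all clones. The member median was -0.0020 without cow 7188, 0.011 on uncentred arrays, -0.21 with liver in Cy3 and -0.045 with liver in Cy5. The family median was -0.35 for SRSF, with 7 of 8 clones below 0, and -0.26 for HNRNP, with 13 of 17. Without cow 7188 these family medians were -0.21 and -0.08, and without cow 7079 they were -0.56 and -0.41. No clone of either family passed. On arrays left uncentred the medians were -0.23 and -0.13, where that of all clones was 0.07. Stellate cell markers had a median difference of -0.71, macrophage markers of -0.40 and cell division markers (2 of 8 genes tested) of -0.41 in the same contrast. The medians were -0.25 for lymphocyte and neutrophil, -0.12 for hepatocyte, -0.06 for endothelial and 0.14 for bile duct markers. No marker passed the threshold, and the part of the markers in the family medians was not tested.

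Several families stood apart together in single cow-days. SRSF, HNRNP, SF3B and SNRP, chosen here after their values were seen, hold 36 tested clones. In cow 7188 on day 1 their medians were -1.51, -1.28, -1.04 and -0.99, and 34 of the 36 clones were below 0. That count had a median of 30 over the 30 cow-days. It was 33 in cow 6934 on day 49 and in cow 7079 on day 1, so the count alone does not set a cow-day apart. In cow 7186 on day -65 the family medians were -1.26, -0.94, -1.24 and -1.002. In cow 7188 on day 28 they were -1.06, -0.81, -0.83 and -0.75. The median of the 36 clones was -1.23, -1.18 and -0.83 in these 3 cow-days, below each of the other 27, and the median over all 30 was -0.44. At the other end was cow 7186 on day 1, at 0.07, with SF3B at 0.62 and HNRNP at 0.16. The same day thus held the lowest cow-day and the highest.

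The other 6 families shared these extremes in part. U2AF was at its lowest of the 30 cow-days in cow 7188 on day 1 (-0.25), DHX in cow 7186 on day -65 (-0.56) and LSM in cow 7188 on day 28 (-0.71). DDX, RBM and PRPF had their lowest values in other cow-days and stood at -0.19, -0.11 and 0.06 in cow 7188 on day 1. The median of the other 72 tested members was -0.10 there. In the lower 2 of these cow-days both arrays of the pair showed the low values: the 36 clones had medians of -1.27 and -1.36 in the 2 orientations in cow 7188 on day 1, and -1.25 and -0.97 in cow 7186 on day -65. In cow 7188 on day 28 they were -1.36 with liver in Cy3 and -0.34 with liver in Cy5, against medians of -0.57 and -0.28 over all cow-days, so that 1 array carried the low value. The spread of all clones in these cow-days was 0.57, 0.63 and 0.58 (scaled median absolute deviation), against a range of 0.24 to 0.92, so they were not the widest arrays. The 1330 clones below the reference had medians of -0.93, -0.96 and -0.81 there, against -0.59 over all 30, and cell division markers were at -3.38, -3.54 and -2.28, against -2.75. Their part in the family values was not tested.

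**Figure D5:**
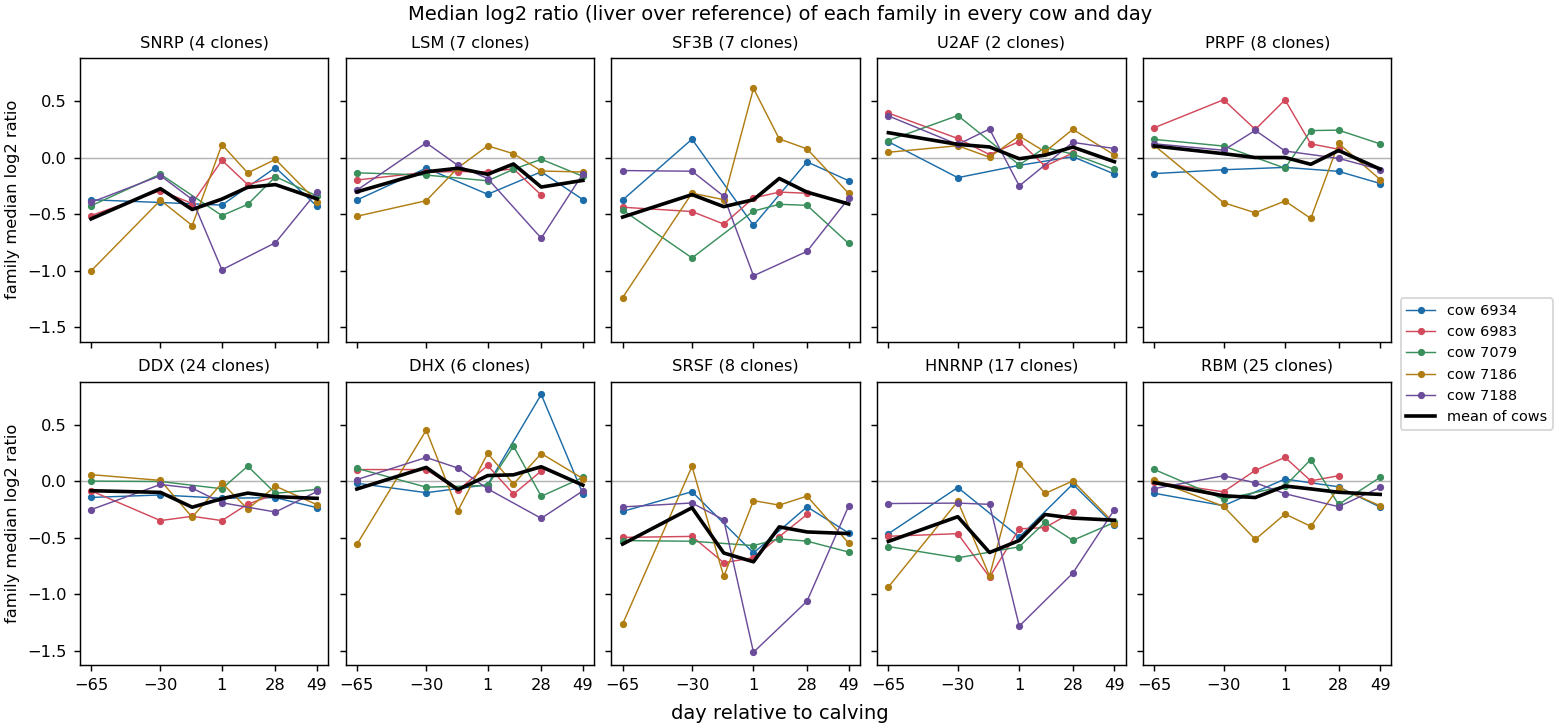
Median log2 ratio of liver over reference (direction only likely) over the tested clones of each family, on each day relative to calving, with a thin line per cow, which joins the days measured in that cow, and a thick line for the mean of the cows. SRSF, HNRNP, SF3B and SNRP dip together in cow 7188 on day 1 (SRSF at -1.51) and in cow 7186 on day -65 (SRSF at -1.26). No member passed the day effect after adjustment. Medians near 0 (PRPF, DHX, RBM, DDX and U2AF) change sign under some processing.

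Averaged over cows, SRSF was highest on day -30 at -0.23 ± 0.28 (SD, n = 5) and lowest on day 1 at -0.71 ± 0.49 (SD, n = 5), a span of 0.479. HNRNP ran from -0.63 ± 0.37 on day -14 (n = 3) to -0.29 ± 0.16 on day 14 (n = 3), and SF3B from -0.53 ± 0.42 on day -65 to -0.18 ± 0.31 on day 14. On day 1 the cows ranged from -1.51 to -0.17 for SRSF, from -1.28 to 0.16 for HNRNP and from -1.04 to 0.62 for SF3B. In these 3 families the range among cows on day 1 was wider than the span of the day means. Day 1 also had the largest SD over cows in each of them, so this does not hold for every day. On day 49 HNRNP ranged only from -0.39 to -0.25, against a span of 0.336. A range of single cows does not measure a change between days. RBM day means stayed between -0.14 and -0.01 and those of DDX between -0.23 and -0.08.

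Averaged over days, the cows lay close to each other in the families below 0. SRSF was at -0.38, -0.56, -0.54, -0.46 and -0.60 in the 5 cows and HNRNP at -0.30, -0.51, -0.60, -0.37 and -0.45. SF3B was at -0.37, -0.40, -0.61, -0.34 and -0.46 and SNRP at -0.27, -0.31, -0.44, -0.44 and -0.54. All 5 cows were below 0 in each of the 4, and cow 6934 was the nearest to 0 in 3 of them. PRPF was at -0.16, 0.31, 0.16, -0.24 and 0.05, with the cows on both sides of 0.

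Other genes of splicing, mRNA export and RNA binding with different name stems were set beside the members. Of 154 such genes listed, 80 were on the array and 76 were tested with 111 clones. Against the reference, 39 of the 111 clones (35.1%, against 25.2% of all clones) passed below 0 and 16 (14.4%, against 22.3%) above, with a median of -0.14. Examples, chosen after their values were seen, were EIF4A1 clone 2, a translation helicase, at -1.42 ± 0.23 (SD, n = 5), SYNCRIP clone 3 at -1.21 ± 0.21, SFPQ clone 2 at -1.07 ± 0.29 and the SF3B partner PHF5A at -0.76 ± 0.20. ZMAT5, of the minor spliceosome, lay at 1.15 ± 0.28 and ESRP2 clone 1, an epithelial splicing regulator, at 0.77 ± 0.17. For 2 of these genes another clone did not pass, SFPQ clone 1 at -0.07 and ESRP2 clone 2 at -0.06. In the day effect and in each contrast between days, 0 of the 111 passed (limma). At an unadjusted p under 0.05 there were 5 in the day effect (4.5%, against 5.21% of all clones), 14 in day 1 against day -30 (12.6%, against 8.37%) and 5 in day 28 against day 1 (4.5%, against 7.82%). There were 3 in lactation against prepartum (2.7%, against 3.86%) and 1 in day 1 against day -14 (0.901%, against 2.29%).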

How the data were processed

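The authors deposited a log2 ratio of the 2 dye channels for each spot, quantified with GenePix per the labels. How background and normalization were handled is not stated in the labels. Channel intensities did not enter. Precision is limited by how many cows there were, 3 to 5 on a day in the tests.

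Arrays with liver in Cy3 had their sign turned. Arrays were centred on the median of their rows, the 2 spots of a clone were averaged, and the exchanged pair was averaged to 1 value per cow-day, with both orientations required. The larger table (60 arrays, 30 cow-days) gave all tests, and the smaller one (8 arrays, 4 cow-days) was a separate print. Symbols were updated through the gene table of the ARS-UCD assembly for 5591 of 5693 clones. Clones that name several genes (95) were tested but never named, and 5030 rows without a clone were left out.

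Fits used limma 3.58.1 in R 4.3.3 on all 5280 clones measured in 3 or more cows on every day: day and cow as fixed terms for the day effect and contrasts, and the means of the 5 cows against 0 for the reference, all 2-sided, Benjamini-Hochberg adjusted over these clones. Cow was a block, since each animal was sampled repeatedly. Deviations from day means correlated on average at 0.14 within a cow and at -0.03 between cows on different days. Arrays of a cow-day are technical repeats, and p-values rest on 5 animals. Scripts were tested on simulated data.

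Members and gene lists were chosen with earlier results of these data known. Named by rule were the highest and lowest clone of each family against the reference, the 5 members with the smallest p in the day effect and 2 each way in each contrast. Others were chosen after their values were seen. Alternatives changed centring, scaling, orientation, the filter on clones, array weights, the table, the clone per gene, the days and the cow term, dropped the 5 cow-days with array pairs that did not correlate below 0, and left out each cow. The array weights were set on cow-day values, and on cow means against the reference.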

Additional observations from a re-analysis of the deposited data

Results flagged for a closer look

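Of 66 groups of 4 or 5 cows checked, 5 had 1 cow far from the rest, where chance alone marks about 1 in 20. Cow 6983 was the lowest for SF3B5 averaged over days, at -1.35 against -0.869 to -0.797 in the other cows, and for DHX15, at -1.04 against -0.197 to 0.109. Cow 6934 was the lowest for the U2AF median, at -0.047 against 0.0808 to 0.119. Cow 7186 was the highest for LSM12 on day 1, at 1.41 against -0.365 to -0.184. Cow 6983 was the lowest for RBM5 clone 1 on day -65, at -0.0695 against 0.211 to 0.259.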

How the results depend on the processing

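Between 36 (of 81, with 1 clone per gene) and 74 members passed against the reference under 17 alternatives with limma (52 as reported), and the member median there was -0.32 on arrays with liver in Cy3 and -0.17 with liver in Cy5 (-0.09 as reported, from the averaged pair). The same 31 of the 52 members passed under every alternative that tested them. Of the members past the threshold, 82.7% lay below the reference as reported, 73.6% with liver in Cy3 and 62.2% with liver in Cy5 (all clones: 53%, 52.8% and 56.3%). Array weights, set on cow-day values, gave 1 member in the day effect, and that fit's weights reached only a loose convergence. The member median of day 28 against day 1 was 0.27 with liver in Cy3 and -0.024 with liver in Cy5 (0.06 as reported), and that of lactation against prepartum was 0.15 without centring, where all clones had 0.14. No replicate block, and cow as a random effect, left 0 members past the threshold in each comparison between days, and the pairing by animal changed no call. The member median of day 1 against day -30 was -0.11 as reported, 0.011 without centring and from -0.16 to -0.0020 with 1 cow left out, and that of day 1 against day -14 was 0.023 and from -0.16 to 0.15. Among the members named by rule, these values changed sign. SNRPD2 was -0.037 without centring and -0.38 with liver in Cy3. SF3B1 clone 3 was 0.026 with liver in Cy3 and 0.000232 without the 5 cow-days whose pairs did not oppose. U2AF2 was 0.053 with scaled arrays, 0.38 with liver in Cy5, 0.037 without those cow-days, 0.046 with both tables, 0.044 with array weights and 0.010 on days -65, -30, 1 and 28. U2AF1 was -0.17 and DHX15 0.45 with liver in Cy3. SRSF6 was 0.0057 with scaled arrays, 0.097 with liver in Cy5 and 0.018 on days -65, -30, 1 and 28. DDX24 clone 2 was -0.021 in day 1 against day -14 with both tables. DHX8, which had passed, was at -0.19 with liver in Cy5, and 7 other passing members had opposite signs in the 2 orientations. With 1 cow left out, SNRPD2 ranged from -0.13 to 0.13, SF3B1 clone 3 from -0.14 to 0.11, U2AF2 from -0.096 to 0.088 and SRSF6 from -0.13 to 0.019. The causes were not tested.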
